A study of Mus musculus with 18 samples.

Results

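The 6 genes described here, Nppa, Nppb, Ankrd1, Xirp2, Nupr1 and Rcan1, are genes known to respond to load or stress in the heart. They were picked by name out of 35808 nuclear genes in the count matrices, with their levels by stage and by hairpin already known, so those levels are given as a description and carry no p-values. The hearts came from Myh6/Esr1-Tomato mice aged 4, 7, 14 or 28 days (P4 to P28), in which Myh6-driven, tamoxifen-switched recombination marks cardiomyocytes (CMs) red, and the study's methods give tamoxifen to the mothers over the first days after delivery. The knockdown hearts are labelled with the same strain and had lentivirus with a hairpin against Jun (shJun) or a non-targeting hairpin (shNT) injected into the myocardium at P1, with cells taken at P28. Cells sat singly in the nanowells of 18 chips, 2 each at P4, P7 and P14, 6 at P28 and 6 with mixed shJun and shNT cells, and each RNA molecule was read through a unique molecular identifier (UMI). Both P4 chips name the same 2 animals, as do both P7 chips, so their spread is one between chips. P4 and P7 ventricles were chopped and digested, whereas P14 and P28 hearts were perfused, and this change in digestion cannot be told apart from age between P7 and P14.

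Nppa and Nppb encode atrial and brain natriuretic peptide, hormones that cardiac muscle releases when its wall is stretched and that promote salt and water excretion through the receptor Npr1. The ventricle makes them before and around birth, loses most Nppa after birth and regains both under load, while the atria keep making Nppa for life. Ankrd1 encodes a stretch-responsive ankyrin-repeat protein of the sarcomere and nucleus, Xirp2 an actin-binding protein of the intercalated disc, Nupr1 a small stress-induced nuclear protein, and Rcan1 an inhibitor of the phosphatase calcineurin that calcineurin and NFAT signalling itself induces.

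In GRCm38 the genes lie on the plus strand at chr4:148000722-148002079 (Nppa), chr4:147985788-147987205 (Nppb) and chr2:67446002-67526614 (Xirp2), and on the minus strand at chr19:36111961-36120099 (Ankrd1), chr7:126623249-126630861 (Nupr1) and chr16:92391953-92470867 (Rcan1). All 6 genes have a RefSeq transcription start in GRCm38.p6, and the 250 bases before it were searched on both strands for GATAA, the core read by GATA factors, CATTCC, the MCAT element read by TEAD factors, and TGANTCA, the site of AP-1 dimers such as those with Jun. TATAAA was searched on the gene's own strand, and the CArG element read by SRF was found in none of the 6. The Nppa window (chr4:148000472-148000721, plus strand) is shown because its level spanned the widest range, and Xirp2 (chr2:67445752-67446001, plus strand) because it holds an AP-1 match. Capitals mark the matches, which are 2 GATAA (1 of them on the opposite strand) and 1 TATAAA for Nppa and 1 AP-1 match for Xirp2.
Nppa: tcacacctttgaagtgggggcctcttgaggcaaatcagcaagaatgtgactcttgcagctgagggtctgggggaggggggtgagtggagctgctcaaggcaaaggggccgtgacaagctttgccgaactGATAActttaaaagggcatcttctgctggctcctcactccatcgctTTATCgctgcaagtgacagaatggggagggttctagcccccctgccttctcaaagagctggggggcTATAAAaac
Xirp2: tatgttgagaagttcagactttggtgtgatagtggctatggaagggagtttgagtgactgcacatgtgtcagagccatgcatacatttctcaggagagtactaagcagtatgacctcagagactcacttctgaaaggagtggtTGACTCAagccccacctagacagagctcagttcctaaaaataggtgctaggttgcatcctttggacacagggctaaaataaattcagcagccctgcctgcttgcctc
Nppb and Nppa lie side by side on chromosome 4. The windows of the next 3 genes reach into the gene as GENCODE draws it, so only 30 bases around matches are shown, at chr4:147985792-147985821 (plus strand) for Nppb, chr19:36119950-36119979 (minus strand) for Ankrd1 and chr16:92400171-92400200 (minus strand) for the second start of Rcan1. They show 1 MCAT and 2 GATAA matches before Nppb, 1 of the 2 MCAT matches before Ankrd1, and the AP-1 match before Rcan1.
Nppb: gcaGGAATGcagctGATAAatcagaGATAA
Ankrd1: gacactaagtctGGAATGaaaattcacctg
Rcan1: gcatgcgggaccTGACTCAggaatttgctg
Of 32851 promoter windows of the same length, 22.6% held GATAA, 12.6% CATTCC, 6.75% TGANTCA, 7.59% TATAAA and 1.47% CArG. The Nupr1 window, before its RefSeq start on chromosome 7, held none of the motifs searched.

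Passing wells (at least 500 genes) numbered 12794 of 15993 from stages and 7057 of 7482 from knockdown hearts. Wells were clustered and CM-like clusters named by Tnnt2, Tnni3, Actc1, Myh6, Actn2, Ttn, Pln and Mb, leaving the 6 genes out. CM-like cells numbered 144 and 168 on the P4 chips, 16 and 23 at P7, 291 and 160 at P14, and 910, 544 and 648 on P28 replicates 1, 3 and 5, while the other P28 chips held 6, 8 and 6. Median UMIs per CM-like cell in the sums of at least 20 cells ran from 5253 to 62198. The TDtomato reporter stood at 97.2 to 532 counts per 1000000 UMIs (CPM) in those sums of the stages and at 0 to 0.190 in the knockdown animals, for which no source used here describes tamoxifen. Genes of other cell types stood among the leading genes of 3 CM-like clusters, P28 cluster 7 (529 cells; Pcdh17, Cav1, Robo4), P28 cluster 12 (101 cells; Rgs1, Ccl4, Cxcl2) and shNT_2 cluster 1 (399 cells; Ccl21b, Ccl21a, Pcdh17, Sox7). Without them the Nppa level moved from 2.89 to 3.44, from 9.33 to 9.96 and from 302 to 328 on P28 replicates 1, 3 and 5, and from 15.8 to 16.3 in shNT_2. Nupr1 moved most, from 30.9 to 21.7 on replicate 5, and in shNT_2 Rcan1 moved from 29.1 to 33.5. Chips shared up to 572 well barcodes with another chip, so wells were kept apart by chip and barcode together.

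Nppa and Ankrd1 were high at P4 and low at P14, Xirp2 and Nupr1 went the other way, and Nppb and Rcan1 did not separate those stages. A level here is the CPM of a gene, its UMIs per 1000000 nuclear UMIs of all CM-like cells of 1 chip, and differences of groups are on log2(level + 1) with a standard error over chips. For the median gene that scale moved by -0.64 from P4 to P14, by 0.48 from P14 to P28 and by -0.17 from P4 to P28, and under TMM scaling by -0.06, 0.09 and 0.01.

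**Figure D1:**
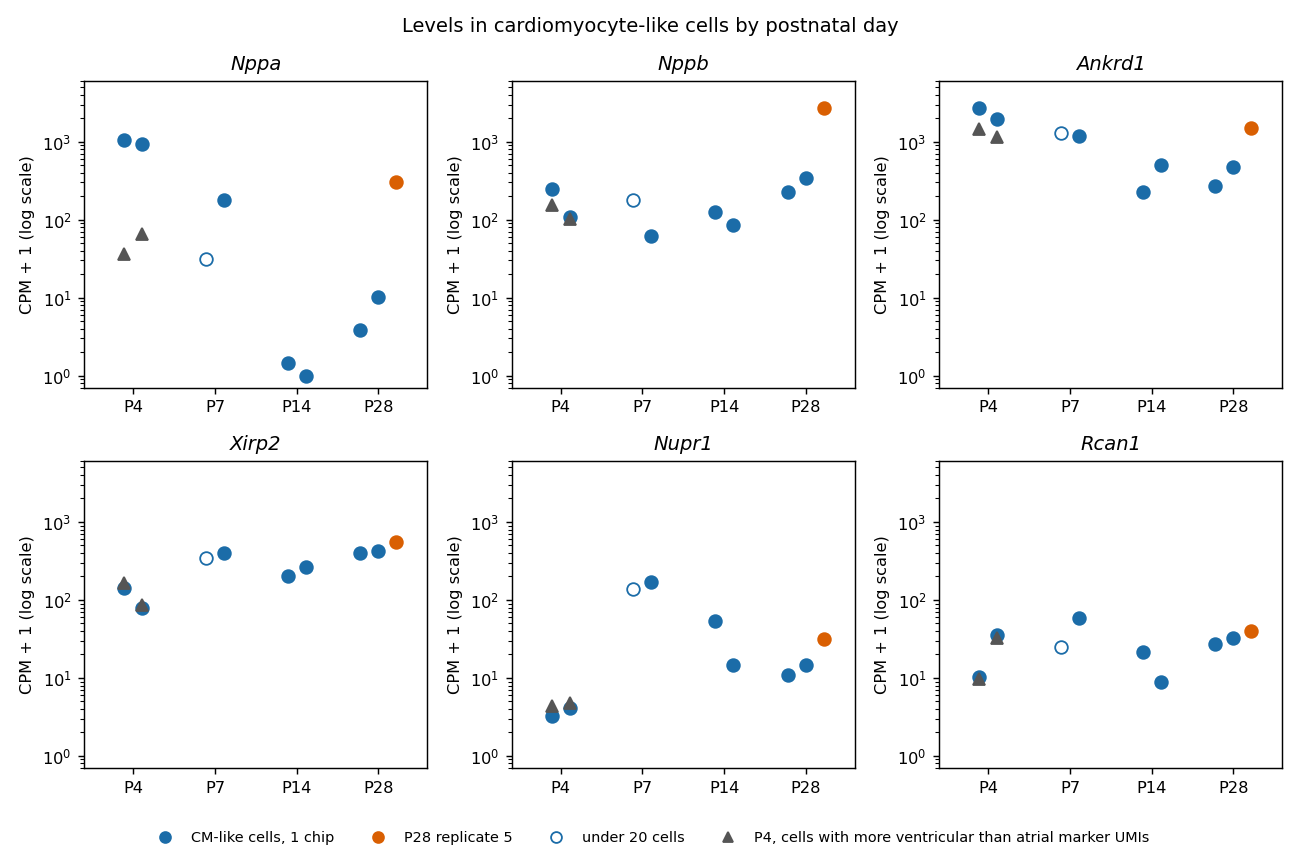
Level of each gene in CM-like cells (y axis, CPM plus 1, log scale) by postnatal day (x axis), with 1 circle per chip. P28 replicate 5 is orange, the P7 chip with 16 cells is open, and triangles give P4 cells with more ventricular than atrial marker UMIs. Nppa stands at 1063 and 927 at P4 and at 0.472 and 0 at P14, and its P4 triangles sit at 35.1 and 65.4.

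Nppa stood at 1063 and 927 CPM on the P4 chips, and at 1471 and 662 when the same cells were summed by animal. On the P7 chip with 23 CM-like cells it stood at 176, but 2 cells held all 216 UMIs, 212 of them in cells with an atrial marker UMI, and the 18 cells without one stood at 4.67. At P14 it stood at 0.472 and 0, which is 2 UMIs of 7047489. With so few counts the pooled ratio of P4 to P14 was 3449, with an exact 95% interval of 955 to 28481 that covers counting error only. At P28 it stood at 2.89, 9.33 and 302 on replicates 1, 3 and 5, all above P14 and below P4. Without replicate 5 the pooled ratio of P28 to P14 was 25.5 (95% interval 6.98 to 212).

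Nppb stood at 249 and 107 at P4, 60.2 on the P7 chip with 23 CM-like cells, 126 and 84.1 at P14, and 223, 344 and 2674 at P28. On the other P7 chip the 15 cells with more ventricular than atrial marker UMIs stood at 189, from 5 cells. P4 and P14 overlapped, and their difference of -0.66 ± 0.67 turned to 0.08 under TMM scaling. P28 lay above P14 by 2.51 ± 1.14, and by 1.42 ± 0.42 without replicate 5.

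Ankrd1 stood at 2702 and 1961 at P4, 1197 at P7, 227 and 503 at P14, and 271, 477 and 1514 at P28. The P4 mean of 2332 ± 524 (SD, n = 2 chips of the same animals) was 6.39 times the P14 mean of 365 ± 196 (n = 2). Summed by animal, P4 stood at 2914 and 1808. P14 and P28 overlapped, and without replicate 5 their means differed 1.02-fold.

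Xirp2 stood at 143 and 77.8 at P4, 400 at P7, 202 and 267 at P14, and 397, 421 and 560 at P28. Its mean of 459 ± 88.4 at P28 (SD, n = 3) was 4.16 times that at P4, and the 3 groups with several chips did not overlap. The P7 value, from the chip with 23 CM-like cells, sat among the P28 values. On the other P7 chip the 15 cells with more ventricular than atrial marker UMIs stood at 362.

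Nupr1 stood at 2.25 and 3.16 at P4, 169 at P7, 53.3 and 13.5 at P14, and 9.84, 13.6 and 30.9 at P28. This P7 chip, with 23 CM-like cells, was highest, and 6 of its cells held all 208 UMIs. There the summed fibroblast markers in CM-like cells stood at 2041 CPM against 232 to 659 in the other stage sums. On the P7 chip with 16, the 15 cells with more ventricular than atrial marker UMIs had Nupr1 at 148, from 3 cells. Fibroblast markers over those 16 stood at 517. The part of fibroblast RNA in these values was not tested. Over P4 Nupr1 was 12.4-fold higher at P14 (2.93 ± 0.97), a sign that reversed to -0.52 over all passing wells and to -1.13 when CMs were called cell by cell. The cell-by-cell call asks for more UMIs of CM markers than of any other class, and takes in many cells outside the CM-like clusters. It held 689 and 930 cells at P4 and 266 and 357 at P14, against 144 and 168 and 291 and 160 CM-like cells.

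Rcan1 stood at 9.34 and 34.8 at P4, 56.9 on the P7 chip with 23 CM-like cells, 20.3 and 7.84 at P14, and 26.3, 31.5 and 39.4 at P28. On the other P7 chip the 15 cells with more ventricular than atrial marker UMIs stood at 25.9. P28 lay above P14 by 1.27 ± 0.65, and P4 overlapped both.

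Between P4 and P14, 2 of the 6 genes (Nppa, Ankrd1) were lower at P14 without overlap of the chips, as were 43.5% of all genes tested, and 2 (Xirp2, Nupr1) were higher, as were 9.63%. Between P14 and P28, 4 (Nppa, Nppb, Xirp2, Rcan1) were higher without overlap, beside 30.6% of all genes, and 0 were lower, beside 3.48%. Under TMM scaling 1 was higher without overlap, Nppa, and 0 were over all passing wells or with CMs called cell by cell. Over all wells Xirp2 turned to -0.37, but there P28 also counts replicates 2, 4 and 6, with 6, 8 and 6 CM-like cells. Xirp2 stood at 16.3, 5.38 and 14.2 over all wells of those chips, of which 2 and 6 were loaded with non-CM cells. Each P14 chip held both CM and non-CM wells. Between P4 and P28, Nppa and Ankrd1 were lower beside 24.3% of all genes, and Xirp2 and Nupr1 higher beside 16.2%, and Nppa alone kept apart over all passing wells or cell by cell. These genes were chosen on the same contrasts, so their shares add nothing to the choice. The shares of all genes are those of the main scaling in CM-like cells. No such share is given for the alternatives, whose counts are not read as a result about the 6 genes.

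At P4 most Nppa came from cells with an atrial profile. The labels describe chopped ventricle for these ages, including tissue next to the auricle. By UMIs of Myl7, Sln, Myl4, Bmp10 and Mybphl against Myl2, Myl3, Kcne1 and Lrrc10, 59 of 144 and 56 of 168 CM-like cells had more atrial than ventricular UMIs, and 4 and 3 cells lay within 40 to 60% atrial share. Those cells held 98.0 and 95.3% of the Nppa UMIs and 67.3 and 60.9% of the Ankrd1 UMIs. Nppa stood at 2645 and 2697 in them and at 35.1 and 65.4 in the rest. Ankrd1 stood at 4620 and 3645 against 1456 and 1141, and Nppb at 394 and 119 against 155 and 101. At P7 there was 1 such cell, and at P14 and P28 there were 0. This split was added after the values had been seen. In a sum over cells, fewer cells of a type and less RNA per cell cannot be told apart.

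Within the P4 cells with more ventricular UMIs, Nppa averaged 50.2 ± 21.4 (SD, n = 2 chips) and still did not overlap P14. Against P28 it overlapped, and without replicate 5 it was 8.22 times the P28 mean of 6.11 ± 4.55 (n = 2). On the 2 P4 chips endothelial-like cells had Nppa at 16.2 and 12.4% of the level of all CM-like cells. Fibroblast-like cells there had it at 6.84 and 7.11%. The highest endothelial-like sum of any chip or animal stood at 172 CPM. The part of free RNA in the P4 cells with more ventricular UMIs was not tested. Ankrd1 averaged 1298 ± 223 in these cells, 3.56 times the P14 mean, while Nppb at 128 ± 37.9 overlapped P14 and was 2.22-fold below P28 without replicate 5. In the same cells Xirp2 stood at 165 and 86.3, Nupr1 at 3.42 and 3.75 and Rcan1 at 8.56 and 31.9, each near its level over all P4 CM-like cells.

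P28 replicate 5 stood apart from the other P28 chips in Nppa, Nppb and Ankrd1, and both of its animals did. Its well table adds the code MYH624D to the animal names M1 and M2, and no source used here explains the code. Nppa stood at 306 and 288 in its animals M1 and M2, against 2.79 and 2.99 in M1 and M2 of replicate 1 and 9.23 in the wells of replicates 3 and 4. Nppb stood at 2699 and 2564, against 263, 167 and 340. Ankrd1 stood at 1538 and 1436, against 334, 185 and 473. Nupr1 was also above every other animal, at 22.8 and 47.3 against 9.85, 10.5 and 16.7, as was Rcan1 by less, at 34.1 and 49.1 against 30.3, 20.9 and 31.8. Xirp2 overlapped, at 618 and 432 against 509, 244 and 418.

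**Figure D2:**
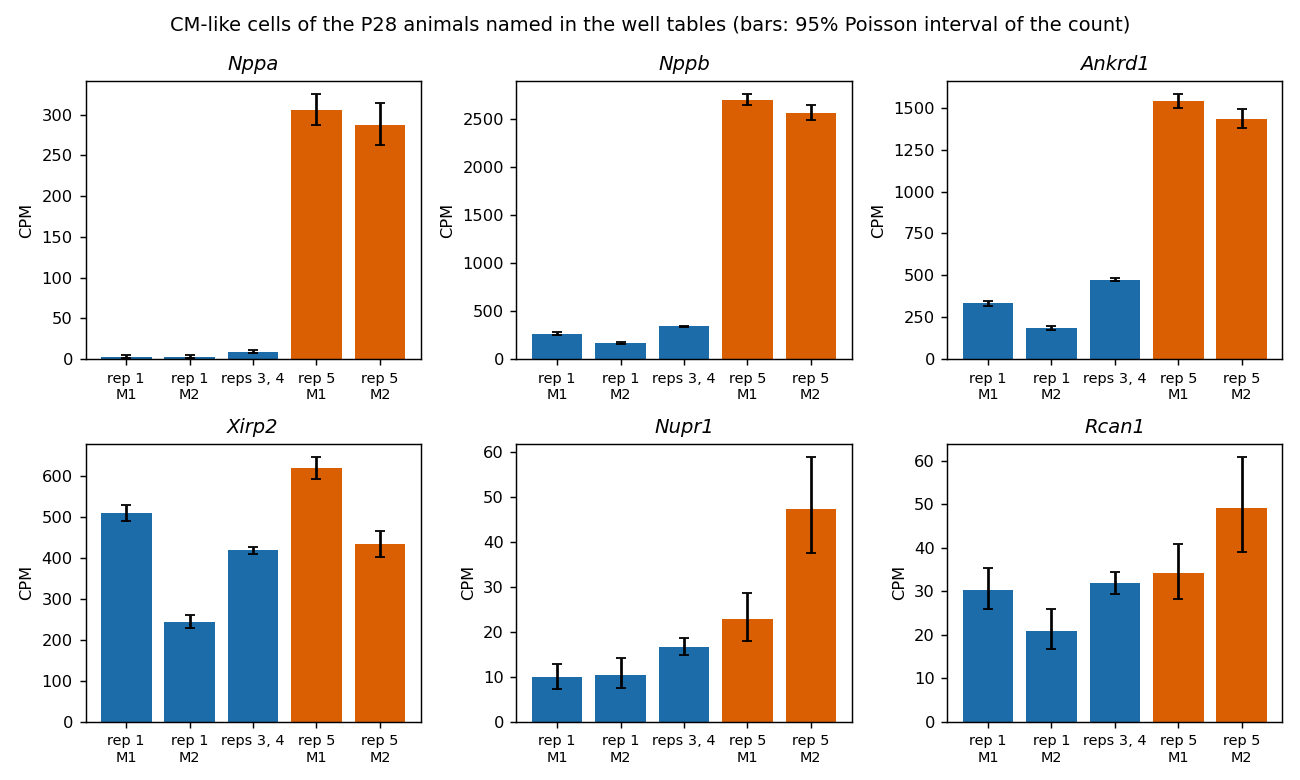
Level of each gene (y axis, CPM, from 0) in CM-like cells of the P28 animals (x axis), replicate 5 in orange, with bars for the exact 95% Poisson interval of the count. Nppb stands at 2699 and 2564 in the replicate 5 animals and at 167 to 340 in the others.

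In replicate 5 most CM-like cells had Nppb. With every cell thinned to 2000 UMIs, Nppb was detected in 557 of 580 CM-like cells of replicate 5, or 96.0% (98.5% unthinned), against 25.4% (48.0%) and 40.8% (92.8%) on replicates 1 and 3. Nppa was detected in 43.1% of thinned cells (73.0% unthinned), against 0.617% (2.53%) and 1.30% (19.1%). Thinning left out 68 of 648, 100 of 910 and 5 of 544 cells. Atrial marker UMIs were also higher on this chip, at 245 CPM against 34.7 and 50.3. Nppa stood at 321 in its 419 CM-like cells without any atrial marker UMI and at 280 in the 229 with 1 or more. TDtomato stood highest of the stage sums at 532, and what sets this chip apart was not tested.

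In the same thinned cells, Nppa and Nppb were found together in 244 of 580 cells of replicate 5, where the product of their shares gives 240. Near the product lay also shJun_1 (65 and 66.3), shNT_1 (19 and 19.5), P4 replicate 1 (5 and 6) and P28 replicate 1 (1 and 1.27). Above it lay P28 replicate 3 (7 and 2.86), shJun_2 (22 and 17.1), shNT_2 (12 and 8.20) and P4 replicate 2 (12 and 7.86). At P4, Nppa and Ankrd1 were found together in 49 and 53 cells, where the products give 40.5 and 45.4.

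Among the classes with several sums, Nupr1 had its highest median in fibroblast-like cells, and the other 5 genes in CM-like cells. Over 13 sums of at least 20 fibroblast-like cells (1 chip or knockdown animal each) Nupr1 had a median of 1266 CPM, from 268 to 2234, against 23.9 and 2.25 to 169 over 12 CM-like sums. The 2 ranges did not overlap. Within fibroblast-like cells Nupr1 stood at 268 and 324 on the P4 chips, 459 and 607 on the P7 chips, 1615 and 454 on the P14 chips and 1455, 1266 and 2234 on P28 replicates 2, 4 and 6. Macrophage-like cells had a median of 243. Rcan1 overlapped widely, with a median of 33.2 (7.84 to 56.9) in CM-like and 19.3 (8.69 to 69.9) in endothelial-like cells. The 30 mural-like cells of P28 replicate 5 had an Nppb level of 1954, and mural-like cells carried the CM markers at a median of 44.3% of the CM-like level.

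**Figure D3:**
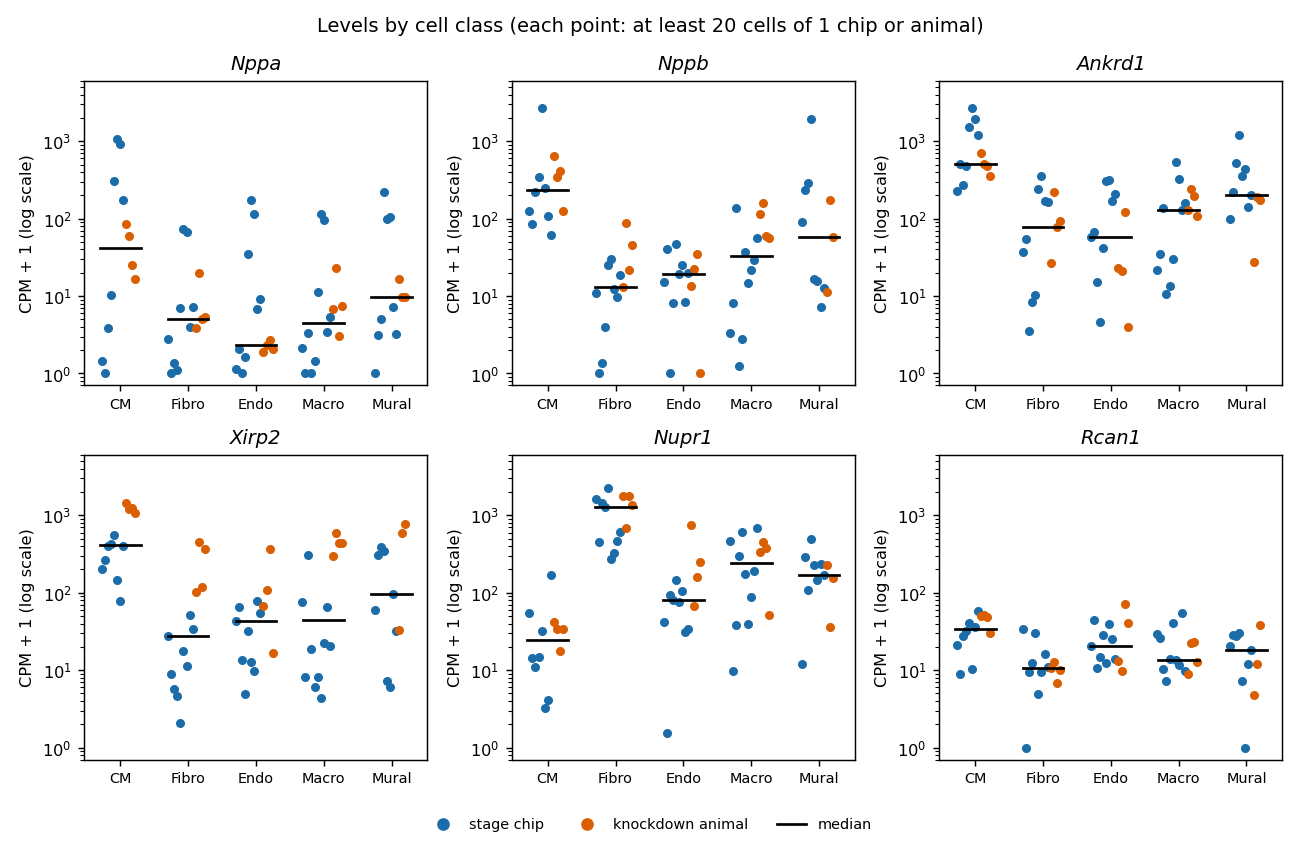
Level of each gene (y axis, CPM plus 1, log scale) by cell class (x axis: CM-like, fibroblast-like, endothelial-like, macrophage-like and mural-like), with 1 point per stage chip (blue) or knockdown animal (orange) and a line at the median. Nupr1 has its highest median, 1266, in fibroblast-like cells, and the other 5 genes have theirs in CM-like cells.

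Non-CM classes carried some UMIs of the CM genes. In endothelial-like cells the 8 CM markers stood at a median of 16.5% of their level in CM-like cells of the same unit, over 9 units from 2.71 to 26.7%. Nppa stood at 7.03%, Nppb at 8.06%, Ankrd1 at 13.1% and Xirp2 at 11.4%, all medians below that of the markers, with 2, 3, 2 and 4 units above their own marker value. After thinning, Nppa was seen in 22.6 and 20.4% of P4 endothelial-like cells, which should lack it, and in 37.5 and 35.7% of CM-like cells. The medians unthinned were 8148 and 16495 UMIs per endothelial-like cell and 20986 and 35665 per CM-like cell, and unthinned shares were 52.0 and 60.7% against 72.9 and 76.8%. Rcan1 stood at 109% and Nupr1 at 747% of the CM-like level in endothelial-like cells.

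The fraction loaded on a chip was not used to choose the genes, so it was tested. The CM wells also gave levels described above, and the genes were chosen with earlier results of these data known. The p-values by fraction are therefore no independent evidence. Centrifugation gave a CM and a non-CM (NCM) fraction of each heart, and P28 replicates 1 and 5 held CM wells and replicates 2 and 6 NCM wells of the same animal names. Values are CPM over all passing wells of a fraction, without regard to cell class, so a lower share of CMs and less RNA per CM cannot be told apart here.

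Xirp2 stood at 491, 205, 599 and 431 in the CM wells of the 4 P28 animals and at 9.98, 21.4, 10.9 and 18.1 in their NCM wells. Ankrd1 stood at 324, 158, 1526 and 1409 against 39.2, 25.1, 38.3 and 34.4. Nppb stood at 266, 145, 2656 and 2546 against 1.03, 2.89, 48.0 and 67.8. In each of the 3 genes the CM wells lay above the NCM wells in 4 of 4 animals without overlap.

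Nppa stood at 2.55, 3.06, 302 and 285 in CM wells against 0.147, 0.240, 18.4 and 23.8 in NCM wells, higher within each animal, by up to 17.4 times, but overlapping between animals. Its NCM level in the replicate 6 animals was above the CM level of the replicate 1 animals. Nupr1 stood at 28.2, 114, 55.7 and 52.5 in CM wells and at 496, 372, 523 and 760 in NCM wells. Rcan1 was higher in CM wells of all 4 animals, by 1.18 to 3.92 times.

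In the P28 chips edgeR's quasi-likelihood test over 15970 genes called 4 of the 6, and 7.21% of all genes (5.03% higher and 2.17% lower in the CM fraction). Xirp2 was higher in the CM fraction by 5.55 ± 0.68 on the log2 scale (edgeR adjusted p = 0.00206), Ankrd1 by 5.37 ± 0.97 (adjusted p = 0.00808) and Nppb by 6.13 ± 1.62 (adjusted p = 0.0419). Nupr1 was lower, at -2.55 ± 0.59 (adjusted p = 0.0239), though its adjusted p was 0.145 without replicate 6. Nppa at 4.40 ± 1.81 (adjusted p = 0.188) and Rcan1 at 1.55 ± 0.62 (adjusted p = 0.173) did not pass. With the chips that share animal names paired as a block, edgeR called all 6, and 6 again with a sum per animal. In the block fit Nppa stood at 4.39 ± 0.56 (edgeR adjusted p = 8.5e-13) and Rcan1 at 1.62 ± 0.53 (edgeR adjusted p = 0.0171). The share of 7.21% of all genes is that of the unpaired fit. These counts of 6 are therefore not read as a result about the 6 genes. The block fit has 4 chip sums and 1 residual degree of freedom, so its small p-values lean on spread shared over genes rather than on replication. The fit per animal has 8 sums and 3 residual degrees of freedom, but the sums come from the same 4 chips. Each of these chips held 1 fraction, as did each knockdown chip below, so chip and fraction cannot be told apart. Without replicate 5 the unpaired Nppa difference turned to -1.61 (adjusted p = 0.645).

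**Figure D4:**
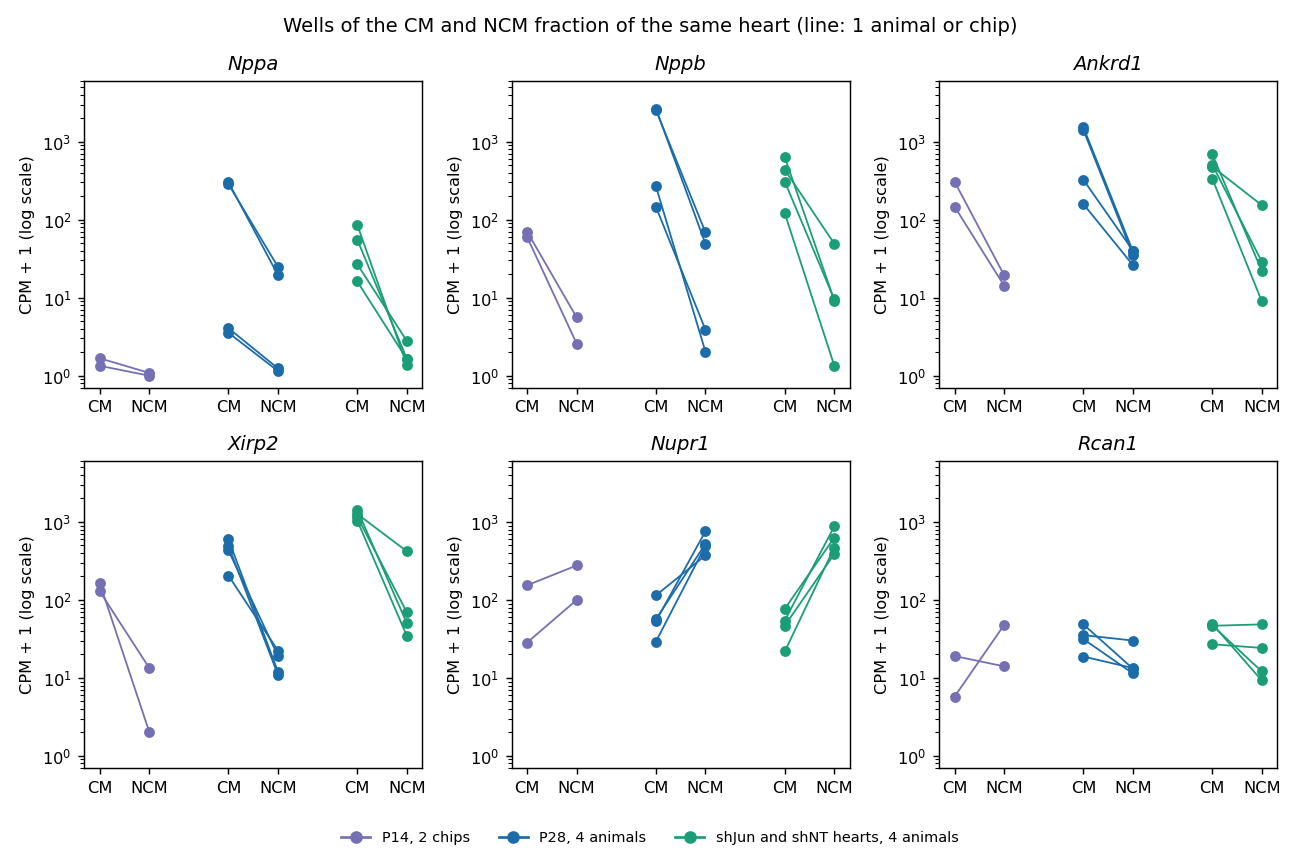
Level of each gene (y axis, CPM plus 1, log scale) in CM and NCM wells (x axis), with 1 line per P14 chip (purple), P28 animal (blue) or knockdown animal (green). Lines for Nppa, Nppb, Ankrd1 and Xirp2 lie lower in NCM and lines for Nupr1 lie higher in NCM in all 10 pairs.

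The fractions of the 4 knockdown hearts were compared in a test added after their values had been seen, with the animal as a block over 17108 genes, of which 34.2% were called (19.4% higher and 14.9% lower in the CM fraction). Nppa stood at 85.1, 54.4, 25.9 and 15.2 in the CM wells of shJun_1, shJun_2, shNT_1 and shNT_2 and at 0.367, 0.655, 1.79 and 0.630 in their NCM wells. That is a difference of 6.29 ± 0.76 (edgeR adjusted p = 0.00173). Nppb (6.40 ± 0.81, adjusted p = 0.00198), Ankrd1 (4.87 ± 0.64, adjusted p = 0.00218) and Xirp2 (4.68 ± 0.60, adjusted p = 0.00204) were higher and Nupr1 lower (-2.94 ± 0.32, edgeR adjusted p = 0.00142) in the CM fraction. Rcan1 at 1.89 ± 0.54 (adjusted p = 0.0323) was higher in 3 of 4 animals, and its edgeR adjusted p was 0.124 without shJun_1 and 0.107 without shJun_2. The summed CM markers were 4.58 to 49.9 times higher in the CM wells, lowest in shNT_1, whose NCM wells carried 21.8% of the CM level. At P14, CM wells were higher on both chips for Nppb, Ankrd1 and Xirp2 (7 and 2 UMIs against 1 and 0 for Nppa), lower for Nupr1, and higher on 1 of 2 for Rcan1.

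In shJun hearts the CM-like cells had more Nppa than in shNT hearts, in both animals and on every chip. Jun itself stood at 28.6 and 33.6 CPM in shJun_1 and shJun_2 and at 53.6 and 64.7 in shNT_1 and shNT_2, a ratio of means of 0.525. The animals contributed 887, 597, 999 and 1062 CM-like cells, and shJun and shNT animals with the same number shared their chips. Values follow in the order shJun_1, shJun_2, shNT_1, shNT_2.

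Nppa stood at 84.4, 57.9, 24.2 and 15.8, so that the shJun mean of 71.2 ± 18.8 (SD, n = 2) was 3.56 times the shNT mean, which had an SD of 5.94 (n = 2). The difference was 1.79 ± 0.40 on log2(level + 1). Thinned to 2000 UMIs, 12.3, 7.71, 4.47 and 3.63% of CM-like cells had an Nppa UMI (67.4, 71.5, 40.8 and 30.7% unthinned), beside 0 to 0.576% of endothelial-like cells (at least 2.62% unthinned), which came almost all from the NCM chips. Among the CM wells themselves, in the 3 animals that had other classes of at least 20 cells there, those classes carried nearly as many CM marker UMIs as CM-like cells. In the CM wells of shJun_2 the 80 fibroblast-like cells had 103035 CPM of CM markers, against 120873 in CM-like cells, and Nppa at 40.5 CPM and in 10% of thinned cells (72.5% unthinned), and the 66 macrophage-like cells had it at 41.4 CPM and in 18.2%, against 57.9 and 7.71% in CM-like cells. In the CM wells of shNT_2 the 118 fibroblast-like cells had Nppa at 11.3 CPM and in 1.69% of thinned cells, and the macrophage-like and mural-like cells in 2.99 and 3.03%, against 3.64% in CM-like cells. In shJun_2 the thinned share of CM-like cells was thus not above that of the other classes in the same wells, so these shares are not read as particular to CM-like cells. The part of free RNA or of mixed wells was not tested. Atrial marker UMIs in the CM-like sums stood at 11.3, 10.1, 9.23 and 20.2 CPM, highest in shNT_2, where Nppa was lowest.

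Nppb stood at 645, 342, 417 and 123, and the hairpins overlapped. Ankrd1 stood at 703, 506, 473 and 359, a 1.45-fold ratio of means without overlap. Xirp2 stood at 1454, 1200, 1256 and 1074 and overlapped. Rcan1 stood at 49.6, 50.3, 47.7 and 29.1, where the lower shJun animal was 1.04 times the higher shNT animal.

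Nupr1 stood at 41.2, 33.1, 16.9 and 32.9, so shJun_2 and shNT_2 were nearly equal. Summed fibroblast markers in the same cells stood at 513, 589, 290 and 682. They were lowest in shNT_1, as Nupr1 was, and highest in shNT_2, whereas Nupr1 was highest in shJun_1. The part of fibroblast RNA in these values was not tested. Over all wells of the CM fraction Nupr1 overlapped, at 53.5, 45.8, 20.8 and 75.9.

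All 4 CM chips gave an shJun to shNT ratio above 1 for Nppa, Nppb, Ankrd1, Xirp2 and Rcan1, as did 11.5% of all genes. The ratios on chips 1 to 4 were 2.97, 2.76, 2.03 and 7.41 for Nppa and 1.71, 1.27, 2.48 and 3.04 for Nppb. They were 1.79, 1.27, 1.20 and 1.65 for Ankrd1 and 1.12, 1.10, 1.10 and 1.15 for Xirp2. For Rcan1 they were 1.17, 1.18, 1.70 and 1.77, whereas those of Nupr1 ran from 0.757 to 3.72, above 1 on 2 of 4 chips. Chips of the same animals are not independent, and Nppb overlapped over animals while being higher in shJun within each chip.

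**Figure D5:**
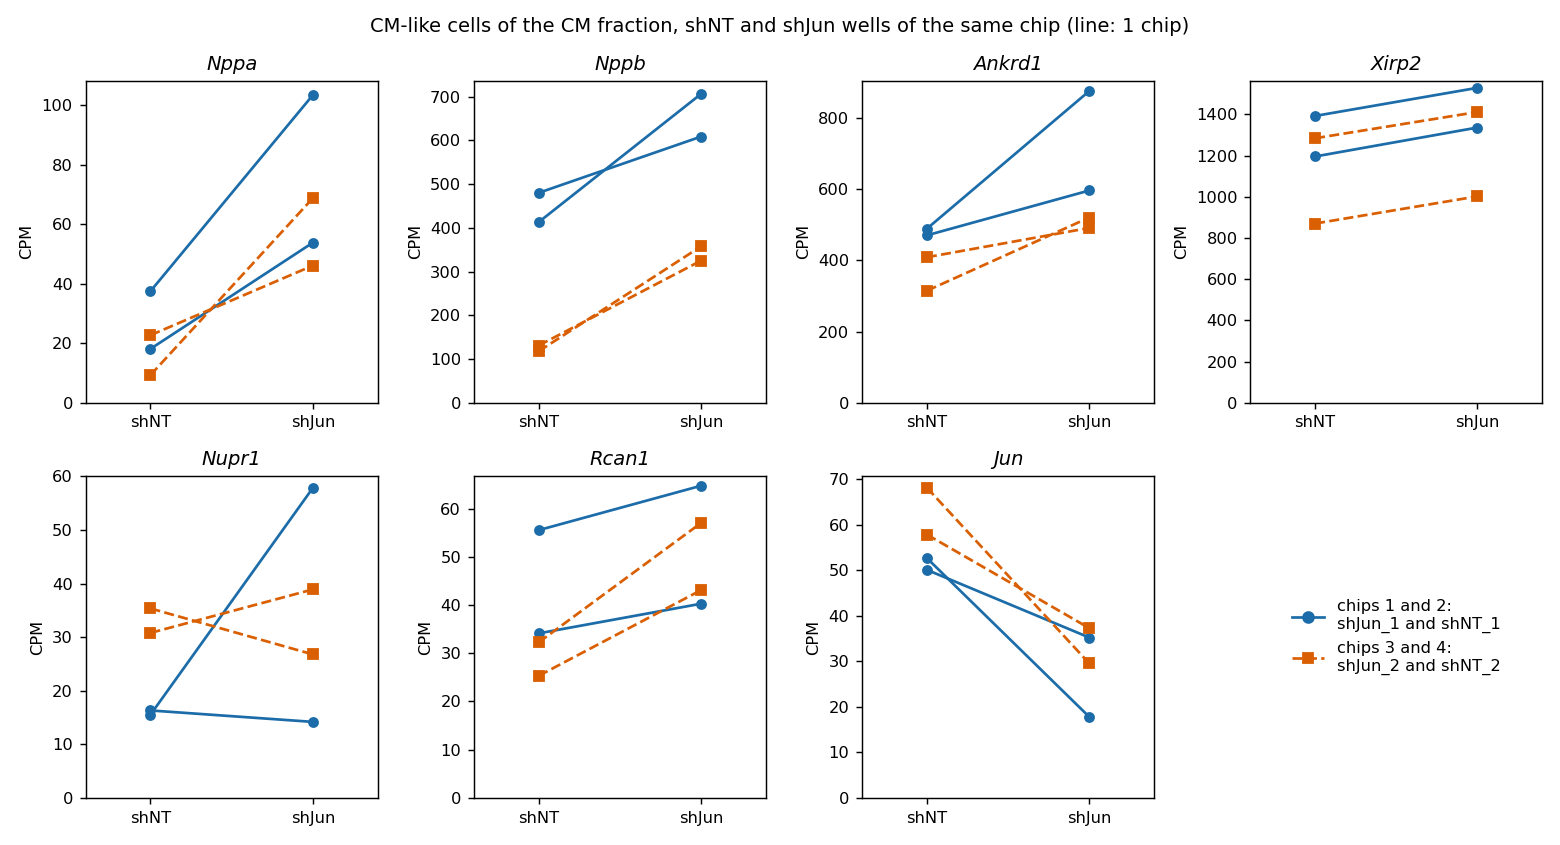
Level of each gene (y axis, CPM, from 0) in CM-like cells of the CM fraction for shNT and shJun wells (x axis), with 1 line per chip (blue for chips 1 and 2, orange and dashed for chips 3 and 4). Nppa is higher in shJun on all 4 chips, at 9.29 to 37.5 in shNT wells and 46.1 to 103 in shJun wells, and Jun is lower on all 4.

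Over animals, 4 of the 6 genes (Nppa, Ankrd1, Nupr1, Rcan1) were higher in shJun without overlap, beside 16.6% of all genes tested, and 0 were lower, beside 8.88%. Nppa and Ankrd1 remained under TMM scaling and with CMs called cell by cell, and Nppa alone over all passing wells. No share of all genes is given for these alternatives. With 2 animals a hairpin, no gene of 17721 passed the edgeR threshold (0%), and 397 of the 17721 had an unadjusted p under 0.05. DESeq2 called 10, and edgeR called 396 without the filter on low counts, 312 without shNT_1, 32 without shNT_2, 1 with the replicate number as a block and 0 under the other alternatives.

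Other genes of these pathways, 64 in 5 lists, were tested in CM-like cells. The lists were drawn up with earlier results of these data known, so their p-values are no independent evidence. From P4 to P14, 2 of 57 tested rose and 1 fell, beside 3.19% of all genes (1.84% higher and 1.35% lower). The stretch-linked Ankrd23, a relative of Ankrd1, stood at 26.3 and 36.5 at P4 and 68.4 and 94.8 at P14 (2.09 ± 0.56, edgeR adjusted p = 0.0472). The stress-response factor Atf3 stood at 7.09 and 8.63 against 6.13 and 81.2, overlapping on this scale (3.09 ± 0.81, edgeR adjusted p = 0.0441). Timp1, a matrix protease inhibitor, went from 18.7 and 23.8 to 0.236 and 0 (-6.38 ± 1.49, edgeR adjusted p = 0.0261). Without P14 replicate 2, P4 replicate 1 or P4 replicate 2, edgeR called 0 of these genes, and without P28 replicate 3 it called 1. Both P4 chips hold the same animals, and with a sum per animal none of the 3 passed (edgeR adjusted p = 0.102 for Ankrd23, 0.0541 for Atf3 and 0.0680 for Timp1), nor with CMs called cell by cell (edgeR adjusted p = 0.175, 0.270 and 0.0921).

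From P4 to P28, 2 rose and 2 fell, beside 4.4% of all genes (2.58% higher and 1.82% lower). Ankrd23 reached 122, 209 and 384 (3.15 ± 0.56, edgeR adjusted p = 0.00337) and Atf3 57.9, 39.9 and 111 (3.33 ± 0.79, adjusted p = 0.0203). Prkg1, the cGMP-dependent kinase downstream of natriuretic peptide receptors, fell from 79.0 and 75.8 to 6.21, 12.9 and 4.38 (-2.99 ± 0.58, edgeR adjusted p = 0.00582). Tbx5, a T-box factor of the atria and left ventricle, fell from 68.0 and 38.2 to 12.4, 8.82 and 15.1 (-1.90 ± 0.51, edgeR adjusted p = 0.0395). Each of the 4 calls rests on the 2 P4 chips, which hold the same animals. Those chips also held the atrial-profile cells, and these genes were not split by atrial profile. All 4 passed with a sum per animal, and Ankrd23 alone of them with CMs called cell by cell (edgeR adjusted p = 0.0301). From P14 to P28 edgeR called 0 of 57 (9 at an unadjusted p under 0.05, 2 by DESeq2), beside 0.0318% of all genes (0.0191% higher and 0.0127% lower). Of all 15729 genes, 1540 had an unadjusted p under 0.05 there and DESeq2 called 96.

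The natriuretic peptide list held 8 tested genes, with a median log2 change of 0.34 from P4 to P14 and 0.16 from P4 to P28, where all genes had -0.06 and 0.01. Corin, the protease that cleaves the Nppa precursor, stood at 59.7 and 37.6 at P4, 58.0 and 158 at P14 and 45.9, 48.2 and 43.8 at P28. The receptor Npr1 stayed between 1.21 and 17.1 in all these sums. For the 10 calcineurin and NFAT genes the medians were 0.37 and 0.25. In shJun against shNT, edgeR called 0 of 60, with 0 at an unadjusted p under 0.05 and 0 by DESeq2, and the list medians ran from -0.13 to 0.04.

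Over the 12 CM-like sums of at least 20 cells, 8 stage chips and 4 knockdown animals, the level most like Nppa among 13177 genes was that of Trmt6 (Pearson r = 0.97 of log2 of the level plus 1), followed by Cuta (0.95) and Gyg (0.94). For Nppb these were Nlrc3 (0.90), Uck2 (0.89) and Slc16a13 (0.89), and for Ankrd1 Cisd3 (0.96), Emd (0.96) and Polr2g (0.94). For Xirp2 they were Gcat (0.98), Eef1a2 (0.96) and Pfkm (0.96), for Nupr1 Lamc1 (0.93), Cdc42bpb (0.89) and Cldn15 (0.89), and for Rcan1 Naprt (0.94), Mrps23 (0.94) and Zfp866 (0.92). Among the 6 genes themselves r ran from -0.41 (Ankrd1 and Xirp2) to 0.90 (Nppa and Ankrd1). The sums share chips, age and depth, and these values are descriptions.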

How the data were processed

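Cells from mouse hearts were dispensed on nanowell chips and imaged to pick wells with 1 live cell. The authors aligned reads to mm10 with STAR (2.5.2b), assigned them to Ensembl genes with featureCounts (Subread 1.4.6-p1) and deposited raw counts of UMIs per gene and well, which were used as deposited. In all 23656 wells the summed counts equalled the well report. Samples were grouped by their labels, and animal, hairpin and fraction came from the well reports. The 6 genes and the gene lists were chosen with earlier results of these data known.

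Wells with at least 500 genes and log10 UMIs within 2 SD of their stage mean passed. They were clustered per stage and per knockdown animal with leidenalg 0.10.2 (10 principal components, 30 neighbours, resolution 0.8 and 1), without the genes reported, and named by markers, so classes can differ from the study's. After the clusters had been seen, 2 P28 clusters whose leading genes went against their name were left unnamed. No doublet caller was run. For each chip or animal the counts of its CM-like cells were added up. Spike-ins, the reporter and 35 mitochondrial genes were left out, the latter 20.1 to 78.8% of UMIs in CM-like sums.

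Sums of at least 20 cells were tested with edgeR 4.0.16 (TMM, filterByExpr, quasi-likelihood F test, adjusted p under 0.05) in R 4.3.3, with DESeq2 1.42.0 as an alternative, after a check on simulated data. Pairing in the fractions comes from shared animal names and in the knockdown from shared chips. Intervals and floors are exact Poisson at 95% and cover counting error only. Total UMIs per chip ran from 11161784 to 133264535 over all wells. Genes named were the 6, Jun and class markers, up to 3 called per list and direction by p, and the 3 genes most like each by r among those with at least 100 UMIs. GENCODE vM21 places the antisense genes Gm13054, Gm13601 and Gm46555 over Nppa, Xirp2 and Rcan1, and whether counting used strand is not given in the sources used here. Promoter windows are RefSeq's.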

Additional observations from a re-analysis of the deposited data

Results flagged for a closer look

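Negative control wells held UMIs of some of the genes. In 90 such wells with 51790 UMIs in all, Xirp2 had 37 UMIs, Ankrd1 24, Nupr1 12 and Nppb 9, each above the limit of 3 that a count of 0 allows, while Rcan1 had 2 and Nppa 0. These wells enter no comparison. In 18 checks for 1 sample far from the rest of its group, none passed the critical value. This check cannot find a pair of like values, so it says nothing on the 2 animals of P28 replicate 5.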

How the results depend on the processing

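With 2 or 3 chips or animals a group, single libraries decided several counts. Of the other stress genes, edgeR called 3 between P14 and P4, with 6 by DESeq2, 7 without the filter on low counts, 1 with CMs called cell by cell, 1 with a sum per animal and 0 to 4 when 1 chip was left out. Between P28 and P14 it called 0, with 2 by DESeq2 and 3 without the filter. Between P28 and P4 it called 4, with 2 for CMs called cell by cell and 0 to 4 with 1 chip left out. Calls over all genes moved by over 1.5 times in each comparison (P14 against P4 502, with 29 to 1225; P28 against P4 692, with 100 to 1313; P28 against P14 5, with 0 to 125; shJun against shNT 0, with 0 to 396; P28 fraction 1151, with 913 to 2910). Genes of the 6 without overlap were 4 between P28 and P14, with 0 over all passing wells, 0 cell by cell and 1 under TMM scaling. Between P28 and P4 they were 4, with 1 over all passing wells and 1 cell by cell. Between shJun and shNT they were 4, with 1 over all passing wells, 2 cell by cell and 2 under TMM scaling. These alternative counts have no share of all genes beside them. With the replicate block, the P28 fraction test called 6 of the 6 genes in place of 4, with no share of all genes given beside it. With that block shJun against shNT called 0 other stress genes in place of 0. The unpaired P28 fraction difference of Nppa ran from -1.61 to 10.47 with 1 chip left out and was below 0 only without P28 replicate 5. Of 276 alternative level differences 16 changed sign, all for Nupr1, Rcan1, Nppb, Ankrd1 or Xirp2. Where 1 chip was left in an arm, it was assumed to vary like the other group. Causes were not tested.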
